A study of Mus musculus with 8 samples.

Results

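A set of 10 genes that report and restrain ERK signaling was followed in mouse pancreatic cancer cells cultured with or without an antibody against sonic hedgehog (SHH). They were taken by symbol from the deposited count table, which gave 10 rows of 39179 genes: the phosphatase genes Dusp4, Dusp5 and Dusp6, the Sprouty genes Spry1, Spry2 and Spry4, the Sprouty-related genes Spred1 and Spred2, and the transcription factor genes Etv4 and Etv5. All 10 had enough counts to be tested. The cells came from mice of an FVB/B6 mix whose genotype includes p48Cre, ROSA_rtTAL+ and p53L+, in which Cre under the p48 pancreas promoter and the tetracycline activator rtTA drive an inducible oncogene. They carried GFP and were grown for 72 h beside RFP-labelled pancreatic stellate cells (PSC) in 0.5% dialyzed serum, with 20 µg/mL of the neutralizing antibody (4 libraries) or with none (4 libraries). The GFP cells were then sorted and their polyA RNA sequenced, so that the genotype, the stellate cells and the low serum were common to both arms. The labels name neither a control antibody nor whether the line is 1 clone, and the dose of inducer is not given in the sources used here. One protocol text, which names the antibody and a biological n of 4, stands with all 8 libraries, and the treatment label separates the arms. Whether the 4 libraries of an arm came from separate cultures on separate days is not given, so p-values measure the spread between these libraries. In bulk RNA, fewer cells expressing a gene and less RNA per cell cannot be told apart.

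RAS proteins activate the kinases RAF, MEK and ERK in turn, and ERK then switches on genes whose products dampen the same route. Among these, DUSP4 and DUSP5 are nuclear phosphatases that remove the activating phosphates of MAP kinases, with DUSP5 selective for ERK, and DUSP6 is their cytoplasmic counterpart, also selective for ERK. Sprouty and SPRED proteins act upstream, between receptors, RAS and RAF, and SPRED proteins bring the RAS inhibitor neurofibromin to the membrane. ETV4 and ETV5 are ETS family transcription factors, induced by ERK and repressed by Capicua (CIC). Levels of these transcripts are widely read as a gauge of ERK output.

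The libraries assigned 10009711 to 15733280 counts to genes, and every antibody library was deeper than every library without antibody. The members took 0.1436% to 0.1516% of counts with antibody and 0.1667% to 0.1735% without. Epithelial markers (Epcam, Cdh1, Krt7, Krt8, Krt18 and Krt19) were all tested, with a summed level of 7316 to 7731 CPM (counts scaled to the same library total, with TMM factors) with antibody and 6776 to 7767 CPM without. Of these Epcam rose (0.28, edgeR adjusted p = 0.022), a call that held without antibody replicate 2 or without replicate 1 or 2 of the other arm and ended without any other single library. Of 18 stellate cell and fibroblast markers, Dcn and Lum were at 0 counts in all 8 libraries, Acta2 and Des had at most 2 counts, and the list summed to 175.0 to 203.4 CPM with antibody and 164.3 to 199.7 CPM without. Most of that sum was Col5a1, with 114.9 ± 3.43 CPM with antibody and 109.7 ± 7.62 CPM without. Of the 11 markers tested, Pdgfra fell (-0.84) and Gas6 rose (0.42), the latter a call lost with DESeq2 (adjusted p = 0.0581) or without any single library other than replicate 4 of either arm (adjusted p up to 0.121). The median log2 fold change of the 11 was 0.36, and 2 were negative. Col1a1 (0.36), Col1a2 (0.47), Col3a1 (0.66) and Col5a2 (0.66) were higher with antibody without passing (edgeR adjusted p = 0.156 to 0.271). With the summed log2 level of the stellate list as a covariate, Dusp5 (-0.39), Dusp6 (-0.40) and Spry2 (-0.30) were still called as lower. That sum weighs all 18 markers alike, those too low to be tested among them. Carry-over of stellate RNA was therefore not tested by it. Markers of leukocytes (2 of 7 tested), endothelial cells (2 of 5) and acinar cells (1 of 6) held 0 called genes. In the arm without antibody, replicate 1 stood furthest from the rest (chi-square over degrees of freedom 9.26 to 11.2). Replicate 4 gave 4.61 and 3.93 against replicates 2 and 3, which gave 1.79 between them. Pairs of antibody libraries gave 1.72 to 3.70. Replicate 1 without antibody had 6.48% of its counts in mitochondrially encoded genes, where the other 7 libraries had 4.10% to 5.02%.

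The DNA upstream of the 3 members that fell is shown because ERK reaches such genes through ETS factors and their partners at promoters. The sequences are from RefSeq (GRCm38.p6), 5′ to 3′ on the strand of the gene, and stop before the gene start of the deposited table. Capitals mark the letters GGAAG (the core of an ETS site), TGACG (the first part of a CRE, the site of CREB and its relatives) and CArG boxes (the site of serum response factor, SRF), on either strand.
Dusp5, chr19:53528895-53529108, plus strand: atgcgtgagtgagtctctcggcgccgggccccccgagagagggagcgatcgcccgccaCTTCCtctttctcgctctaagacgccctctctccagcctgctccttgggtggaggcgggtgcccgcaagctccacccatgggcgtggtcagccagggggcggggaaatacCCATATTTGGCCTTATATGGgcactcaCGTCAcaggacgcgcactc
Dusp6, chr10:99262981-99263230, plus strand: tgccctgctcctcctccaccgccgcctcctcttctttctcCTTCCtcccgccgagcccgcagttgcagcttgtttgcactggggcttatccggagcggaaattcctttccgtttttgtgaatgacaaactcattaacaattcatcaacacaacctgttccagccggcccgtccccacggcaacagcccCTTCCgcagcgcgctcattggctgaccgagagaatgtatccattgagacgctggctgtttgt
Spry2, chr14:105896820-105897069, minus strand: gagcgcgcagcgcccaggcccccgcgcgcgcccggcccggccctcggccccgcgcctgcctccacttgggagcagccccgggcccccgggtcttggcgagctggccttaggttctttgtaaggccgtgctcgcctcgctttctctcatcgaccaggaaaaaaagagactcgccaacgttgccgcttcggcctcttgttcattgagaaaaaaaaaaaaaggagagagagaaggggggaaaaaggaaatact
Windows of 250 bases before the RefSeq start were searched for 7 members (Dusp5, Dusp6, Spry1, Spry2, Spred1, Spred2 and Etv5), the last of which has 2 windows. Dusp5 held 2 CArG boxes end to end, CCATATTTGG at 82 to 73 bases and CCTTATATGG at 72 to 63 bases before the start, followed by TGACG read on the other strand at 55 to 51 bases. A CArG box was found in 1.47% of the 32851 windows of all genes, and 2 or more in 0.0183%, that is in 6 windows. The share for 2 or more was taken for this motif alone, which Dusp5 held, so it is a description. Whether these boxes bear on the fall of Dusp5 was not tested. Dusp6 held GGAAG at 2 places, both read on the other strand, and Spry2 held none of the motifs searched. GGAAG was in 5 of the 7 members and in 64.1% of all windows. The longer ETS site CCGGAAGT (2.88% of windows), the AP-1 site TGACTCA (4.46%) and the full CRE TGACGTCA (1.55%) were in 0 of the 7. The same held for the CIC site forms TGAATGAA (1.08%) and TGAATGGA (1.01%). Forms of the CIC site that begin with TC were not searched, so the count does not cover them. TGACG was also in Spred2 and in 17.8% of all windows. It is part of the full CRE, and GGAAG is part of the longer ETS site.

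With the antibody, Dusp5, Dusp6 and Spry2 fell and the other 7 members did not pass the test. Dusp5 fell by 25.1%, Dusp6 fell by 21.5% and Spry2 fell by 15.8%. In all, 3 of the 10 members were called, where 8.40% of all genes tested were called in either direction. The 3 called members of 10 compare with 527 genes called as lower of 13626 tested, which is 3.87%, and 0 members were called as higher against 4.53% of all genes (a Benjamini-Hochberg adjusted p under 0.05 in the quasi-likelihood test of edgeR). With DESeq2 0 members were called as higher as well, and 0 had a rise at an unadjusted p under 0.05. The arms did not overlap in CPM for the same 3 members, all lower, where 6.56% of tested genes had no overlap in that direction. Over the 10 members 8 log2 fold changes were negative and the median was -0.10, beside 7022 negative and a median of -0.00 over all genes tested.

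**Figure D1:**
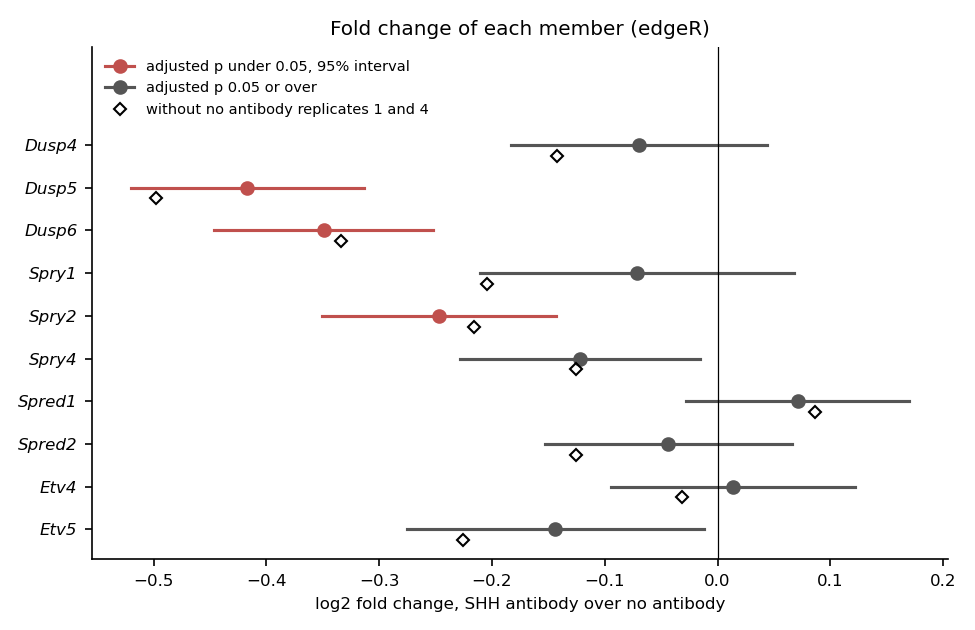
log2 fold change of each member, antibody over no antibody (x axis), with its 95% interval from edgeR (n = 4 libraries per arm); red marks adjusted p under 0.05 and open diamonds give the value without replicates 1 and 4 of the arm without antibody. The intervals of Dusp5, Dusp6 and Spry2 lie furthest below 0. The diamonds of Dusp5 (-0.50), Spry1, Dusp4, Spred2, Etv5, Etv4 and, barely, Spry4 lie to the left of their points. Those of Dusp6, Spry2 and Spred1 lie to the right.

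Of the phosphatase genes among the members, Dusp5 and Dusp6 fell while Dusp4 did not pass the test. Dusp5 (ENSMUSG00000034765, chromosome 19, 53529109 to 53542431, GRCm38) stood at 123.8, 121.4, 125.1 and 127.0 CPM in antibody replicates 1 to 4 and at 156.8, 174.7, 175.7 and 157.5 CPM in those without. The antibody libraries lay close together and below each of the others, which formed a lower pair (replicates 1 and 4) and a higher pair (replicates 2 and 3). Its mean went from 166.2 ± 10.4 to 124.3 ± 2.36 CPM (SD, n = 4 each), a log2 fold change of -0.42 ± 0.05 SE (edgeR adjusted p = 8.5e-06). In GENCODE M21 an antisense gene, AC137853.2, covers 547 bases of the exons of Dusp5, and the strand setting of the counting is unknown here, so part of its reads is uncertain.

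Dusp6 (ENSMUSG00000019960, chromosome 10, 99263231 to 99267488) was the most abundant member. It had 577.5, 552.7, 540.6 and 593.8 CPM in the antibody libraries and 744.9, 718.0, 707.4 and 714.5 CPM in the others. No antibody library came near the lowest of the other arm, and unlike Dusp5 its controls lay close together. The mean went from 721.2 ± 16.4 to 566.1 ± 24.0 CPM (SD, n = 4 each), a log2 fold change of -0.35 ± 0.05 SE (edgeR adjusted p = 3.12e-05). Only 2.53% of tested genes had a lower log2 fold change than Dusp5 and 3.98% a lower one than Dusp6.

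Dusp4 (ENSMUSG00000031530, chromosome 8, 34807297 to 34819894), whose product also acts on JNK and p38, had 153.5, 144.7, 148.9 and 149.3 CPM with antibody and 139.5, 155.9, 172.5 and 158.4 CPM without. Replicates 1 and 3 without antibody were the lowest and the highest of the 8 libraries, so the antibody values lay inside the range of the other arm. Its log2 fold change was -0.07 ± 0.05 SE (edgeR adjusted p = 0.504). Its fold had a 95% interval of 0.88 to 1.03.

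**Figure D2:**
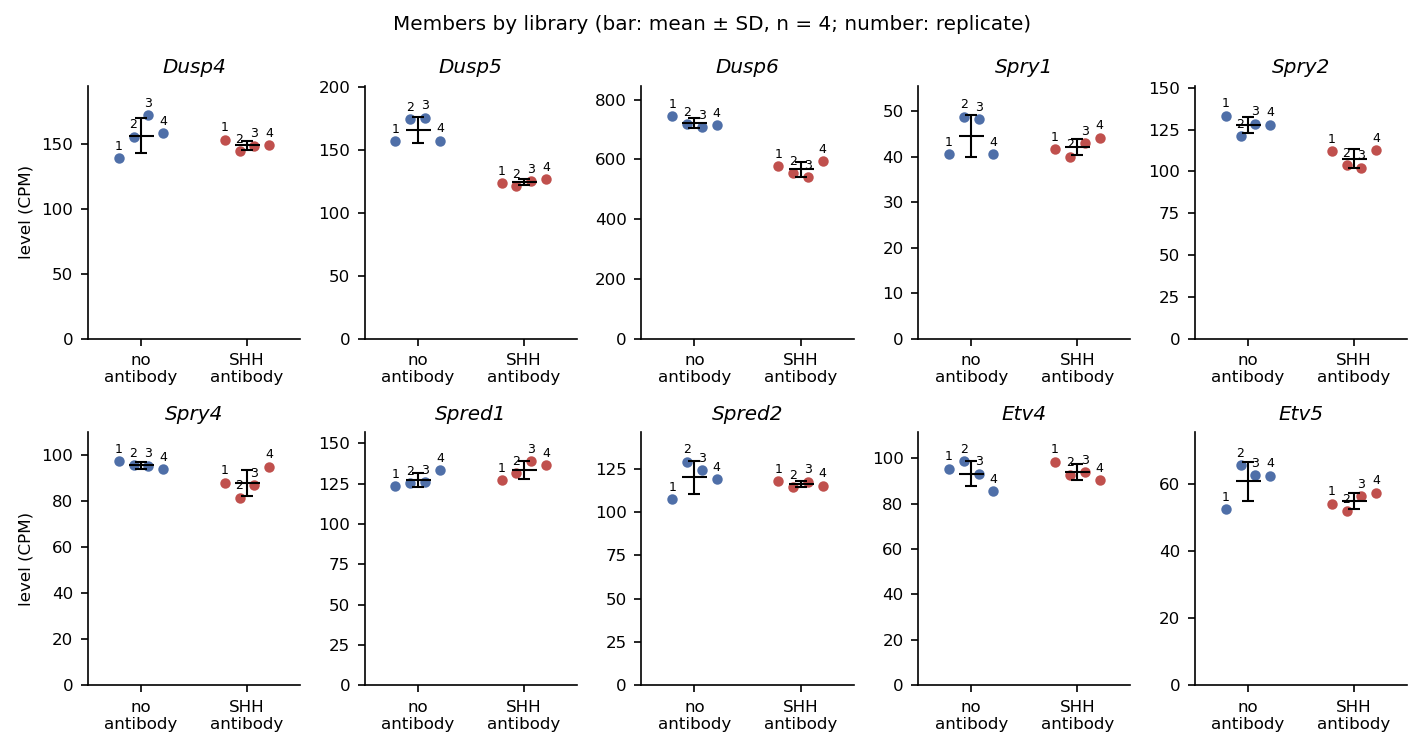
Level of each member in CPM (y axis, from 0) by arm; each point is a library with its replicate number, and bars give mean ± SD (n = 4). The points of Dusp5, Dusp6 and Spry2 with antibody lie below all points without, whereas the other 7 members overlap.

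Among the Sprouty genes Spry2 fell. Spry2 (ENSMUSG00000022114, chromosome 14, 105891949 to 105896819), an inhibitor of receptor signaling to RAS, had 112.0, 103.7, 102.2 and 112.7 CPM with antibody and 133.3, 121.0, 128.6 and 127.9 CPM without. The highest antibody library lay below the lowest of the other arm, replicate 2. Its mean went from 127.7 ± 5.06 to 107.6 ± 5.46 CPM (SD, n = 4 each), a log2 fold change of -0.25 ± 0.05 SE (edgeR adjusted p = 0.00258). Spry4 (chromosome 18, 38586268 to 38601268), a close relative with the same kind of activity, had 87.93, 81.54, 86.87 and 94.90 CPM with antibody and 97.26, 95.75, 95.45 and 93.73 CPM without. Only antibody replicate 4 reached into the narrow range of the other arm. The log2 fold change of Spry4 was -0.12 ± 0.05 SE, with an edgeR p of 0.0263 before and 0.16 after adjustment and a 95% interval of the fold from 0.85 to 0.99. Spry1 (chromosome 3, 37639947 to 37644598), the least abundant Sprouty, had 41.62, 40.01, 42.98 and 44.23 CPM with antibody and 40.60, 48.88, 48.24 and 40.60 CPM without. Its controls split into the pairs 1 and 4, level with the antibody libraries, and 2 and 3, above them. The log2 fold change was -0.07 ± 0.07 SE (edgeR adjusted p = 0.591, 95% interval of the fold 0.86 to 1.05). In GENCODE M21 the gene Gm42922 on the other strand covers 710 bases of the exons of Spry1.

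Neither of the SPRED genes passed the test. Spred1 (chromosome 2, 117121374 to 117182279) had 127.1, 131.6, 139.2 and 136.5 CPM with antibody and 123.6, 125.2, 126.1 and 133.6 CPM without, a log2 fold change of 0.07 ± 0.05 SE (edgeR adjusted p = 0.427). It had the highest log2 fold change of the 10, and 28.0% of tested genes had a larger one. Spred2 (chromosome 11, 19924375 to 20024026) had 117.9, 114.3, 117.6 and 115.3 CPM with antibody and 107.5, 129.1, 124.3 and 119.2 CPM without. The antibody libraries were nearly level and lay within the spread of the other arm, and the log2 fold change was -0.04 ± 0.05 SE (edgeR adjusted p = 0.696). At 95% the fold lay between 0.98 and 1.13 for Spred1 and between 0.90 and 1.05 for Spred2.

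The ETV genes did not pass the test either. Etv4 (chromosome 11, 101769742 to 101785371) had 98.48, 92.78, 93.98 and 90.47 CPM with antibody and 95.38, 98.65, 93.20 and 85.58 CPM without. The 2 arms covered nearly the same range. Its log2 fold change was 0.01 ± 0.05 SE (edgeR adjusted p = 0.92), with a 95% interval of the fold from 0.94 to 1.09, which does not reach the fold of 0.78 of Dusp6. Etv5 (chromosome 16, 22381309 to 22439719) had 54.23, 52.01, 56.40 and 57.52 CPM with antibody and 52.52, 65.80, 62.76 and 62.58 CPM without. Replicate 1 without antibody was level with the antibody libraries, and the other 3 lay above all of them. The log2 fold change was -0.14 ± 0.06 SE, with an edgeR p of 0.0338 before and 0.185 after adjustment and a 95% interval of the fold from 0.83 to 0.99. Without replicate 1 of the arm without antibody Etv5 was called as lower (-0.21, edgeR adjusted p = 0.00944). That fit leaves out the lowest control of Etv5, so the call adds no support.

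The spread between libraries without antibody differed from member to member. The coefficient of variation was 10.3% for Spry1, 9.5% for Etv5, 8.63% for Dusp4, 7.71% for Spred2, 6.29% for Dusp5 and 5.96% for Etv4, and 1.51% for Spry4, 2.28% for Dusp6, 3.48% for Spred1 and 3.96% for Spry2. Counting alone gives between 1.07% and 4.35% in that arm. With antibody it was between 1.51% and 6.25%, and largest for Spry4 and Spry2, which is not the order found without. Replicates 2 and 3 without antibody lay above replicates 1 and 4 for Dusp5, Spry1, Spred2 and Etv5. For Etv5 replicates 3 and 4 were nearly level (62.76 and 62.58 CPM), and replicate 1 stood alone at 52.52 CPM. Without replicates 1 and 4, 7 members were called as lower, namely the 3 above and Dusp4 (-0.14, edgeR adjusted p = 0.0202), Spry1 (-0.20, edgeR adjusted p = 0.0194), Spred2 (-0.13, edgeR adjusted p = 0.0384) and Etv5 (-0.23, edgeR adjusted p = 0.00555). In that fit of 6 libraries 8.21% of 13914 genes were called as lower, so the share was larger than 3.87% for all genes too. That fit leaves out the lower controls of Dusp5, Spry1, Spred2 and Etv5 and the lowest of Dusp4. The larger falls of these members there follow from that choice and add no support. The part of mitochondrial content or depth in the split of the controls was not tested.

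**Figure D3:**
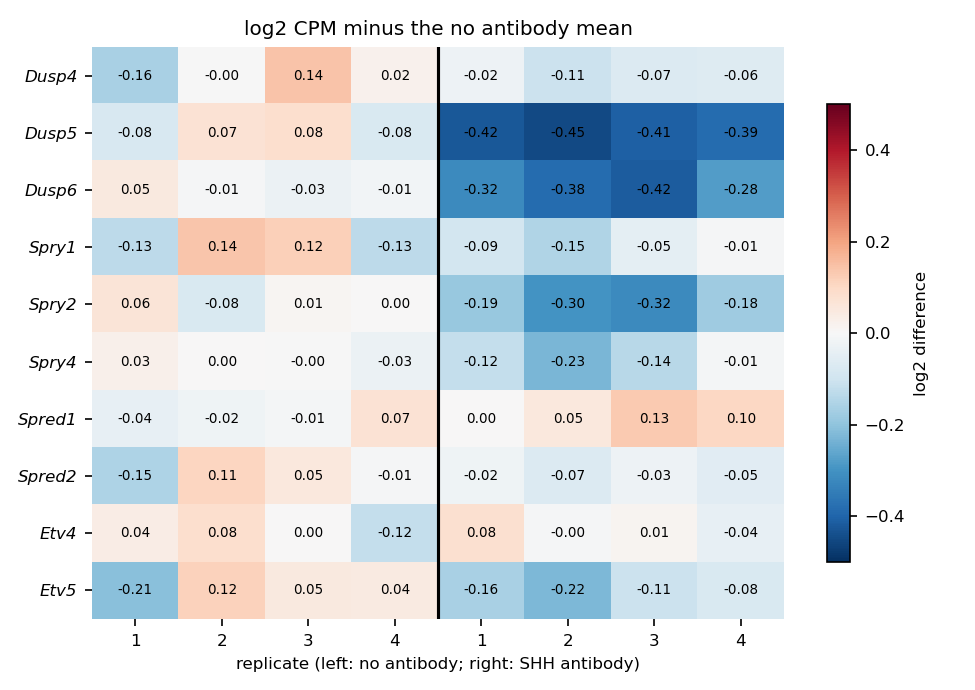
log2 CPM of each member (rows) in each library (columns; left of the line no antibody, right SHH antibody) minus the mean of the libraries without antibody. Dusp5 lies between -0.45 and -0.39 and Dusp6 between -0.42 and -0.28 in the antibody libraries, while Spry1 without antibody splits into 0.14 and 0.12 (replicates 2 and 3) against -0.13 and -0.13 (replicates 1 and 4).

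Whether members of a family differed from each other was asked with the log2 ratio of their counts within a library, which does not depend on library scaling. For Dusp4 over Dusp5 this ratio was 0.26 ± 0.03 with antibody and -0.09 ± 0.09 without, and for Dusp4 over Dusp6 it was -1.92 ± 0.05 and -2.21 ± 0.16 (SD, n = 4 each). In both pairs the arms did not overlap, and the differences of 0.35 and 0.28 each gave the smallest p that 70 assignments of libraries allow (exact permutation test, two-sided, p = 0.0286; Benjamini-Hochberg adjusted over the 8 pairs, 0.114). Neither passed after adjustment, which at this number of libraries needs at least 5 of the 8 pairs at that smallest p. The ratio of Dusp5 to Dusp6 differed by -0.07 between arms (exact permutation p = 0.314). Spry2 over Spry4 differed by -0.12 (exact permutation p = 0.0857) and Spry1 over Spry2 by 0.17 (exact permutation p = 0.229), so the fall of Spry2 is not shown to differ from the values of its relatives. The remaining pairs were Spry1 over Spry4 (0.05), Spred1 over Spred2 (0.11) and Etv4 over Etv5 (0.15), with exact permutation p from 0.171 to 0.514 and overlapping arms.

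**Figure D4:**
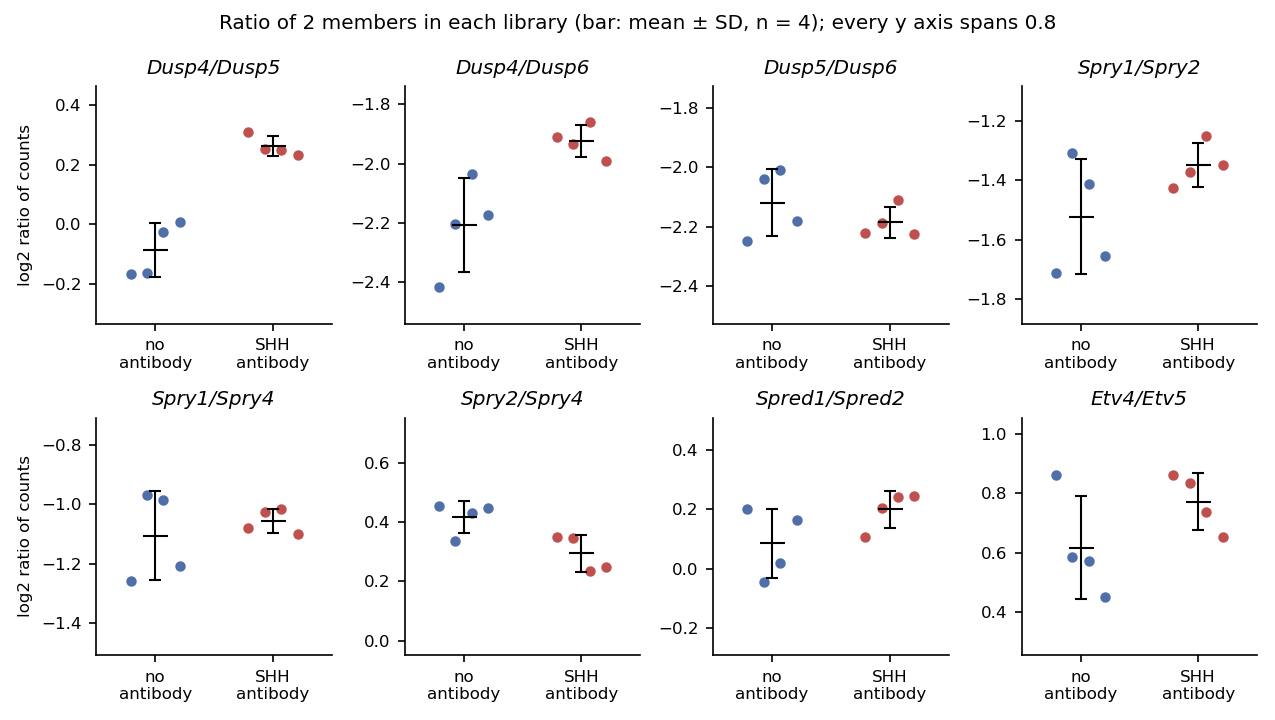
log2 ratio of the counts of 2 members in each library (y axis, each spanning the same width) by arm, with mean ± SD (n = 4). The arms lie apart for Dusp4/Dusp5 and Dusp4/Dusp6 and overlap for the other 6 pairs.

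Levels can be compared between genes only per length, for which the deposited RPKM values (counts scaled by gene length and by the total of the library) were used. Since Dusp5, Dusp6 and Spry2 differed between arms, the order is given within each arm (SD, n = 4). Dusp6 was highest in both, with 203 ± 8.46 RPKM with antibody and 257 ± 4.05 RPKM without, apart from every other member. With antibody Dusp4 came next (54.5 ± 1.49 RPKM), then Spry2 (51.7 ± 2.65 RPKM) and Dusp5 (50.4 ± 0.88 RPKM). Without it Dusp5 came next (66.9 ± 4.47 RPKM), then Spry2 (61.0 ± 2.19 RPKM) and Dusp4 (56.9 ± 5.25 RPKM). Dusp4 thus lay above Dusp5 in 4 of 4 antibody libraries and below it in 4 of 4 libraries without, the ranges being apart with antibody and touching at 62.50 to 62.97 RPKM without. Spry2 overlapped its neighbours in both arms. Etv4 (30.3 and 29.9 RPKM, with and without antibody) and Spred2 (25.2 and 25.9 RPKM) followed in both, in that order in all libraries, with ranges that overlapped without antibody. Spred1 (19.7 ± 0.729 RPKM) and Spry4 (19.2 ± 1.16 RPKM) overlapped with antibody, whereas without it Spry4 (20.7 ± 0.207 RPKM) lay above Spred1 (18.7 ± 0.734 RPKM) in 4 of 4 libraries. Spry1 (14.6 and 15.3 RPKM) and Etv5 (13.4 and 14.8 RPKM) were lowest, and their ranges overlapped in both arms. Dusp6 made up 65.9% ± 0.797 of the summed RPKM of the 3 phosphatase genes with antibody and 67.5% ± 1.93 without, and Dusp4 17.7% ± 0.466 and 14.9% ± 1.21. That sum was 299.0 to 317.0 RPKM with antibody and 375.3 to 387.2 RPKM without. The summed RPKM of the Sprouty genes was 81.35 to 89.63 with antibody and 95.48 to 99.14 without, of which Spry2 took 60.5% ± 1.07 and 62.9% ± 1.78. For Spred1 and Spred2 together (44.19 to 46.10 against 40.91 to 46.29 RPKM) and Etv4 and Etv5 together (42.60 to 45.34 against 42.83 to 47.70 RPKM) the arms overlapped.

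Of 16 other ERK targets 9 fell and 0 rose, where 3.87% of all genes tested were called as lower and 4.53% as higher. Their median log2 fold change was -0.32 beside -0.00 over all genes tested. The list was drawn up with results of these libraries known, so its count is no independent support. Ier3, an immediate early survival gene (-0.77 ± 0.06 SE), Myc (-0.51 ± 0.05 SE) and the EGF receptor ligand genes Ereg (-0.52 ± 0.07 SE) and Hbegf (-0.48 ± 0.06 SE) had the smallest p (edgeR adjusted p = 4.64e-08, 1.48e-06, 4.14e-05 and 1.33e-05). The cyclin gene Ccnd1, which is often read with Dusp4, Dusp6, Spry2, Spry4, Etv4 and Etv5 as an ERK signature, had a log2 fold change of -0.02 ± 0.05 SE (edgeR adjusted p = 0.892). Of its other usual members, Epha2 (-0.34, edgeR adjusted p = 0.000187) and Epha4 (-0.35, edgeR adjusted p = 0.001), both ephrin receptor genes, fell, and Phlda1 had -0.15 (edgeR adjusted p = 0.0879; -0.18 and 0.00728 without replicate 1 of the arm without antibody).

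Of the 20 genes from Grb2 to the ERK kinases and their RSK targets, 2 rose and 0 fell, with a median of 0.02. Over all genes tested 4.53% were called as higher and 3.87% as lower. The 2 that rose were the scaffold gene Ksr1 (0.23 ± 0.07 SE, edgeR adjusted p = 0.0357) and the RSK gene Rps6ka1 (0.23 ± 0.07 SE, edgeR adjusted p = 0.0336). Both calls ended without replicates 1 and 4 of the arm without antibody (0.09, adjusted p = 0.339, and 0.10, adjusted p = 0.236). When libraries were left out singly, Ksr1 stayed called without replicate 2 or 3 of that arm, and Rps6ka1 without those or without antibody replicate 2. Next by p came Rps6ka3 (0.14, adjusted p = 0.178) and the RAS activator gene Sos2 (-0.11, adjusted p = 0.252), and Rps6ka3 was called without replicate 4 of that arm (0.22, adjusted p = 0.0127). Mapk3, which encodes an ERK kinase, did not pass (0.05 ± 0.06 SE, edgeR adjusted p = 0.673).

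Of the other MAP kinase phosphatase genes, 2 of 6 tested fell, where 3.87% of all genes tested were called as lower. Dusp10, whose product acts on p38 and JNK, had 36.44 ± 1.88 against 41.78 ± 1.59 CPM (-0.20, edgeR adjusted p = 0.0383), and Dusp8, of the same preference, 4.32 ± 0.583 against 6.38 ± 1.09 CPM (-0.54, edgeR adjusted p = 0.024). Dusp16 (0.06) and Dusp7 (0.06) did not pass (adjusted p = 0.582 and 0.708), and Dusp2 was too low to be tested. Of the relatives, Spred3 fell (-0.22, edgeR adjusted p = 0.0292), Etv1 did not pass (0.01, adjusted p = 0.989) and Spry3 had 0 counts in all libraries. Of 8 fits that each left 1 library out, Dusp8, Dusp10 and Spred3 were each called in 3. Dusp8 kept the call without antibody replicate 4 and without replicate 1 or 4 of the other arm, Dusp10 without antibody replicate 1 and without replicate 1 or 2 of the other, and Spred3 without replicate 2, 3 or 4 of the other. The call of Dusp10 also ended with DESeq2 (adjusted p = 0.0653), without the low-count filter (0.0556), with a replicate block (0.0636), with the stellate covariate (0.0714) and without replicates 1 and 4 of the arm without antibody (0.0576). That of Dusp8 ended with the covariate (0.0601), and that of Spred3 without those replicates (0.0593). On either RPKM scale none of these 3 was called.

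Of 10 other inhibitors of receptors and RAS 1 was called as lower, beside 3.87% of all genes tested. Errfi1, which blocks the EGF receptor and is itself induced by it, fell from 852.1 ± 10.9 to 709.8 ± 10.6 CPM (-0.26 ± 0.04 SE, edgeR adjusted p = 0.000413). The RAS GTPase-activating gene Rasa1 (0.13), Lrig1 (-0.08) and Cbl (0.10) did not pass (adjusted p = 0.286, 0.342 and 0.421), although leaving out no-antibody replicate 4 gave Rasa1 a call as higher (0.22, adjusted p = 0.041). Cic, the repressor of Etv4 and Etv5, stood at a log2 fold change of 0.01 ± 0.05 SE (edgeR adjusted p = 0.951). Of the 13 genes of the CIC complex and other ETS factors 1 was called as higher and 1 as lower, beside 4.53% and 3.87% of all genes tested. Elf3, an epithelial ETS factor, rose from 43.21 ± 3.36 to 63.97 ± 3.48 CPM (0.57 ± 0.06 SE, edgeR adjusted p = 2.81e-06). Atxn1, a partner of CIC, fell (-0.30 ± 0.09 SE, edgeR adjusted p = 0.047) and among the same 8 fits was called only in that without replicate 4 of the arm without antibody, and it was not called with DESeq2 (adjusted p = 0.0799). Ets1 (-0.20, adjusted p = 0.0679) and Elk3 (-0.12, adjusted p = 0.174) did not pass. Without replicate 1 of the arm without antibody both were called as lower (adjusted p = 0.014 and 0.0124), as was Ets1 without replicate 3 of that arm (0.045) or antibody replicate 4 (0.0394).

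**Figure D5:**
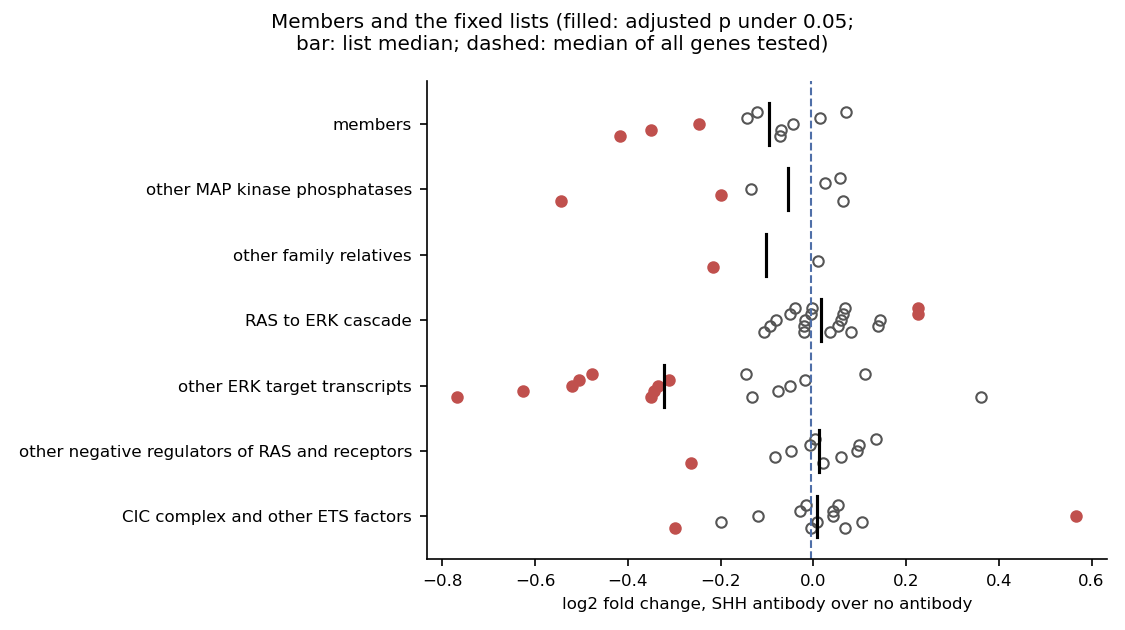
log2 fold change, antibody over no antibody (x axis), of each tested gene in the members and the 6 other lists (rows); filled points have adjusted p under 0.05, bars are list medians and the dashed line is the median of all genes tested. The ERK targets reach from -0.77 to 0.36 with 9 filled points, and the 20 genes of the cascade lie between -0.11 and 0.23.

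Dusp5 had the smallest p of the members. Among 11008 other tested genes of at least 5 CPM, those whose log2 CPM followed it most closely over the 8 libraries included Myc, Eif1 and Gm6863. Pearson's r was 0.993, 0.98 and 0.978 and Spearman's rho 0.905, 0.952 and 0.857. They are given as a description, since these values take in the difference between arms, and depth differed between arms as well. Myc and Eif1 fell (-0.51 and -0.19), Eif1 not without antibody replicate 2 (edgeR adjusted p = 0.054), while Gm6863 had a log2 fold change of -0.10 (edgeR adjusted p = 0.177).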

How the data were processed

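Strand-specific libraries of polyA RNA from sorted cancer cells were made, per the labels' protocols (4 per arm). The submitters' processing notes name CASAVA 1.8.2, TopHat2 2.0.9 and GRCm38. The counting tool, its annotation and its strand setting were not given in the sources used here. Raw counts per gene and RPKM values were deposited by the authors. For 11429 of 11429 genes checked, the RPKM equals the count over 1 whole gene length (within 0.01 bases) and the column total.

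The deposited counts went into edgeR 4.0.16 under R 4.3.3 (TMM, filterByExpr, quasi-likelihood test, Benjamini-Hochberg over the 13626 genes left, threshold 0.05), and the model held the arm alone. The procedure was tested on simulated data. Fold changes are antibody over no antibody; SEs come from the F statistic, and intervals are at 95%. CPM use TMM factors; 3 counts correspond to 0.191 to 0.30 CPM, for counting error only. Every pair of libraries within an arm differed by more than counting noise. Ratios of members used counts plus 0.5. Whether libraries of the same replicate number were made together is not given. Correlations of their deviations were -0.03 to 0.01, which cannot show that they were not, and a replicate block was among the alternatives. Alternatives used DESeq2 1.42.0 and limma 3.58.1, among others. The members, lists and alternatives were chosen with earlier results of these data known. Named are all members, up to 4 genes of each list with the smallest p, and 4 genes most like the member with the smallest p; Ccnd1, Epha2, Epha4, Phlda1, Mapk3, Cic and markers were added after their values were seen. Some items that the rule names are not reported here.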

Additional observations from a re-analysis of the deposited data

How the results depend on the processing

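Dusp5, Dusp6 and Spry2 were called as lower under every alternative run: scaling by RLE or upper quartile, the low-count filter dropped or made stricter, the replicate block, DESeq2, limma voom without and with sample weights, log2(RPKM + 1), log2(RPKM + 0.1), the stellate marker covariate, each library left out in turn, and without replicates 1 and 4 of the arm without antibody. 0 members were called as higher in any. Without a single library the log2 fold change was -0.44 to -0.39 for Dusp5, -0.37 to -0.33 for Dusp6, -0.27 to -0.22 for Spry2 and -0.21 to -0.11 for Etv5. The members not called moved more for their size: -0.12 to -0.02 for Dusp4, -0.12 to -0.03 for Spry1, -0.09 to -0.01 for Spred2, -0.16 to -0.09 for Spry4, 0.05 to 0.10 for Spred1, and -0.03 to 0.04 for Etv4, whose sign turned. Weighting the samples also called Etv5 (-0.18, adjusted p = 0.0295). With replicates 1 and 4 of the arm without antibody left out, 7 members were called, Dusp4 (-0.14), Spry1 (-0.20), Spred2 (-0.13) and Etv5 (-0.23) among them, and 2263 genes in all against 1144. That fit leaves out the lower controls of Dusp5, Spry1, Spred2 and Etv5, so its added calls are no further support. It and the fits leaving 1 library out hold fewer samples, and the cause was not tested. With log2(RPKM + 1) 675 genes were called, with log2(RPKM + 0.1) 670, and without a single library 679 (antibody replicate 2) or 695 (antibody replicate 3) to 1485. The 6 lists beside the members held 17 called genes, 10 on either RPKM scale and 11 to 18 without a single library. With the replicate block 1005 genes were called, and the block changed no member's call (Dusp5 -0.42, Dusp6 -0.35, Spry2 -0.25). The ratios of members kept adjusted p over 0.05 throughout. Sign flips within replicate numbers (smallest p 0.125) and ratio tests on 7 or 6 libraries (0.0571 and 0.0667) could not pass.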
